A study of Mus musculus with 40 samples.

Results

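Loss of Dppa2 was compared with loss of Dux in mouse embryonic stem cells that lacked Ctbp1 and Ctbp2, in 4 of the 34 RNA libraries of a series of 40 samples. The members were fixed by label: 2 libraries of a Ctbp and Dux triple knockout (labelled Ctbp_DuxTKO, here CtbpDux_TKO) and 2 whose sample descriptions name the Ctbp double knockout with a Dppa2 knockout (DKO_Dppa2_KO, here DKO_Dppa2KO). All lines derive from E14tg2a, an established mouse embryonic stem cell line, cultured with serum and leukaemia inhibitory factor. The other groups of the same table, each of 2 libraries, were WT cells, cells lacking only Ctbp1 and Ctbp2 (CtbpDKO), and single knockouts of Dux (DuxKO) and of Dppa2 (Dppa2KO). The title and genotype fields of DKO_Dppa2KO instead read Dppa2_DuxTKO, so a Dux deletion beside that of Dppa2 cannot be told from the labels. The labels give neither the number of clones nor how the genes were disrupted, and nothing states that the 2 libraries of a group came from separate cultures, so p-values measure only the spread between these libraries, which may be technical. Differences between the lines, clones included, cannot be told apart from those of the deleted genes.

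Dppa2 and its partner Dppa4 are small chromatin proteins of the early embryo and of pluripotent cells. They bind CpG-rich promoters together, keep both H3K4 and H3K27 methylation at developmental genes, protect a set of germline and repeat-associated promoters from DNA methylation, and act upstream of Dux. Dux is a homeodomain transcription factor that switches on genes of the 2-cell embryo, such as the Zscan4 family, and CtBP proteins are corepressors that DNA-binding repressors recruit together with histone deacetylases and demethylases. With Ctbp removed and Dux RNA not detected on both sides, the comparison asks what the loss of Dppa2 does beyond the loss of Dux.

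Reads over the deleted genes checked the labels. In CtbpDux_TKO, Ctbp1 had 2 and 4 counts, and in DKO_Dppa2KO 4 and 0, against 1911 and 2109 in WT. Ctbp2 stood at 40.0 and 40.3 CPM (counts relative to the scaled library total) in CtbpDux_TKO and 36.5 and 36.9 CPM in DKO_Dppa2KO, against 211 and 215 CPM in WT. Ctbp2 reads were thus reduced but present on both sides, at a level that did not pass the test between them (log2 fold change −0.13 (SE 0.08, edgeR adjusted p 0.286)). Duxf3, the symbol under which Dux is listed, had 0 and 0 counts in CtbpDux_TKO and 0 and 0 in DKO_Dppa2KO. A count of 0 allows up to 3 counts, which is 0.102 to 0.150 CPM in these 4 libraries, for counting error only. Dppa2 was at 84.4 and 95.4 CPM in CtbpDux_TKO and 21.3 and 19.7 CPM in DKO_Dppa2KO, and fell by 2.13 on the log2 scale (SE 0.11, edgeR quasi-likelihood adjusted p 9.99e-08). The groups did not overlap, which held for 61.1% of all tested genes in either direction. The remaining 426 and 464 Dppa2 counts show that reads over the gene were reduced rather than absent. The labels do not say which part of a gene was removed. In cells with Ctbp the difference in Dppa2 reads was smaller: Dppa2KO had 33.3 and 29.1 CPM, DuxKO 47.3 and 44 CPM and WT 57.3 and 60.9 CPM, a log2 fold change of −0.55 between Dppa2KO and DuxKO (edgeR adjusted p 0.00243). Dppa4 was at 50.6 and 55.2 CPM in CtbpDux_TKO and 58.5 and 60.6 CPM in DKO_Dppa2KO, a log2 fold change of 0.17 (SE 0.11, edgeR adjusted p 0.308).

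Across the table, 4872 of 21193 tested genes passed an adjusted p of 0.05 (called below), which is 23.0% of them. Of these, 2222 (10.5%) were higher and 2650 (12.5%) lower in DKO_Dppa2KO than in CtbpDux_TKO. At a change of 2-fold or more the split was 310 higher (1.46%) and 1187 lower (5.60%). Without structural RNA genes the split was 2521 higher and 2528 lower. The median log2 fold change of all tested genes was −0.03. Totals ran from 19944644 to 36025046 counts in the 12 libraries, structural RNA genes took 15.4% to 28.0% of them, and in the 4 libraries compared these shares were 27.2% and 19.07% for CtbpDux_TKO and 21.9% and 28.0% for DKO_Dppa2KO. Without CtbpDux_TKO replicate 1 the count of called genes was 2864, and without DKO_Dppa2KO replicate 2 it was 2352.

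Markers of embryonic stem cells were present in both lines. The summed level of Pou5f1, Nanog, Sox2, Esrrb, Zfp42 and Utf1 was 1523 and 1647 CPM in CtbpDux_TKO and 1818 and 1874 CPM in DKO_Dppa2KO. Of the 2-cell markers Zscan4c, Zscan4d, Zfp352, Tcstv1 and Duxf3, CtbpDux_TKO held a few Zscan4c counts in 1 library and DKO_Dppa2KO held none. Fibroblast markers summed to 7.33 and 8.73 CPM in CtbpDux_TKO and 4.01 and 4.62 CPM in DKO_Dppa2KO, with Col3a1 and Postn at 0 in all 4 libraries. Trophoblast markers summed to 14.3 and 18.4 CPM and to 21.5 and 20.4 CPM, in the same order. Neural markers summed to 72.7 and 79.0 CPM and to 67.0 and 69.2 CPM. Mesoderm markers (T, Mixl1, Mesp1 and Kdr) summed to 1.56 and 1.77 CPM and to 1.45 and 0.805 CPM. Called lower were 1 of 3 tested fibroblast markers and 1 of 2 tested mesoderm markers. Of the 6 embryonic stem cell markers 1 was called higher, and 0 trophoblast and 0 neural markers were called.

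Genes of the primitive endoderm and its visceral derivative fell as a group, and the difference had 2 sides: they were high in CtbpDux_TKO and low in DKO_Dppa2KO. Primitive endoderm is the extraembryonic lineage that faces the blastocoel, set apart from the epiblast by Gata6, Gata4, Sox17 and Pdgfra and known for its laminin and collagen IV basement membrane and for endocytic receptors. Of 24 listed genes 21 were tested and 16 were called lower in DKO_Dppa2KO, against 12.5% of all tested genes, with a median log2 fold change of −2.97. By edgeR 0 were called higher, 0 were higher at an unadjusted p under 0.05 and DESeq2 called 0 higher and 15 lower. The list was taken up as a result after its values were seen.

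Gata6, the transcription factor that starts the lineage, stood at 11.7 and 10.7 CPM in CtbpDux_TKO and 1.2 and 1.06 CPM in DKO_Dppa2KO. It fell by 3.30 on the log2 scale (SE 0.34, edgeR quasi-likelihood adjusted p 2.84e-05). Sox17, which acts downstream of it, stood at 14 and 11.1 CPM and 0.601 and 0.593 CPM and fell by 4.38 on the log2 scale (SE 0.39, edgeR quasi-likelihood adjusted p 9.28e-06). Gata4 was at 18 and 18.1 CPM against 5.01 and 4.45 CPM, and the receptor gene Pdgfra at 15.5 and 13.1 CPM against 0.851 and 0.763 CPM, with log2 fold changes of −1.94 and −4.14. None of these 4 overlapped between the groups, a trait shared by 61.1% of all tested genes. Sox7 was at 1.91 and 1.73 CPM against 0.601 and 0.89 CPM and did not pass the test (log2 fold change −1.27 (SE 0.52, edgeR adjusted p 0.0973)).

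The endocytic and matrix genes of the lineage showed the same order. Cubn, the receptor cubilin of the visceral endoderm, was at 122 and 99.1 CPM in CtbpDux_TKO and 2.5 and 0.805 CPM in DKO_Dppa2KO and fell by 6.10 on the log2 scale (SE 0.42, edgeR quasi-likelihood adjusted p 9.56e-07). Dab2, an endocytic adaptor, was at 70.1 and 78.9 CPM against 2.91 and 2.33 CPM and fell by 4.84 on the log2 scale (SE 0.22, edgeR quasi-likelihood adjusted p 1.99e-08). The laminin subunit gene Lama1 was at 347 and 328 CPM against 24.3 and 23.5 CPM (log2 fold change −3.82), and the collagen IV gene Col4a1 at 398 and 374 CPM against 55.5 and 49.7 CPM (−2.88). In both the lowest CtbpDux_TKO library was several fold above the highest DKO_Dppa2KO library. Apoe and Hnf4a did not pass the test, at 85.6 and 82.8 CPM against 91.6 and 103 CPM and at 3.77 and 2.51 CPM against 2.55 and 3.98 CPM.

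**Figure D1:**
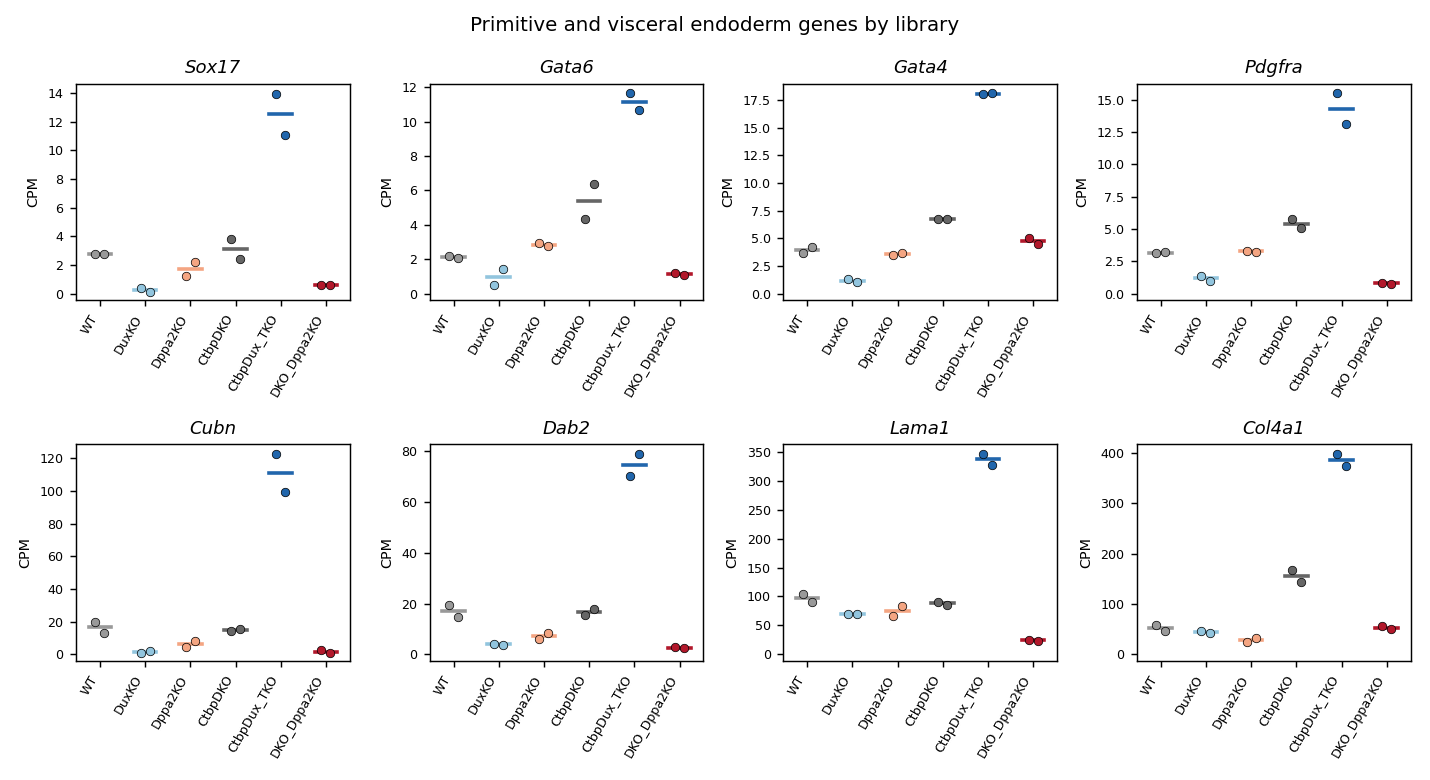
Levels of 8 primitive and visceral endoderm genes in CPM (vertical axes from 0, 1 scale per gene) in the 6 groups of the table. Points are single libraries and bars are means of 2. In each panel the highest points are those of CtbpDux_TKO, and DKO_Dppa2KO lies below CtbpDKO.

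Levels in CtbpDKO lay between those of DKO_Dppa2KO and CtbpDux_TKO for the 8 genes plotted by library. Lama1, for example, was at 90.7 and 85.1 CPM in CtbpDKO, and Cubn at 14 and 15.8 CPM. Against CtbpDKO, CtbpDux_TKO had 15 of the 21 called higher, where 8.15% of all tested genes were called, 3.60% higher and 4.54% lower. DKO_Dppa2KO had 1 called higher and 12 lower against CtbpDKO, where 15.4% of all tested genes were called, 5.75% higher and 9.67% lower. Both use the CtbpDKO libraries and each shares a group with the main comparison, so these counts are not separate evidence. In cells with Ctbp, which share no library with the comparison, the difference ran the other way. There Dppa2KO against DuxKO had 11 of 21 called higher and 1 lower, against 9.38% and 8.95% of all tested genes (18.3% in all). The interaction, which tests whether the difference depends on Ctbp, was called lower for 15 of the 21, where 11.4% of all tested genes were. Sox17 stood at 0.408 and 0.133 CPM in DuxKO and 1.21 and 2.21 CPM in Dppa2KO, and Cubn at 0.986 and 1.83 CPM and 4.35 and 8.4 CPM. The summed level of the 5 primitive endoderm markers was 61.1 and 54.7 CPM in CtbpDux_TKO, 22.3 and 21.9 CPM in CtbpDKO, 12.5 and 12.5 CPM in WT and 8.26 and 7.75 CPM in DKO_Dppa2KO. In bulk libraries, fewer cells of a type and less RNA per cell cannot be told apart.

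Many germline genes were also lower in DKO_Dppa2KO. These genes of meiosis and of the piRNA pathway are kept silent in somatic cells by promoter DNA methylation and by a Polycomb complex that contains the E-box binding proteins Mga and Max, and several are known targets of Dppa2 and Dppa4. Of 62 listed genes 51 were tested, with 23 called lower, 5 higher and 23 not called, against 12.5% lower and 10.5% higher among all tested genes, and the median log2 fold change was −1.0. The share called higher was thus near that of all genes. With 1 library left out the number called lower ran from 17 to 20 and the number called higher from 3 to 4, with 3 without either CtbpDux_TKO library.

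The promoters of 4 genes called lower, Ddx4, Mael, Mov10l1 and Dazl, are shown because they differ in the E-box CACGTG, the site of the Max family, which reads the same on both strands. The 250 bases before each start site are from RefSeq (GRCm38.p6), 5′ to 3′ on the gene's strand, with capitals marking the E-box. Ddx4 lies at chr13:112652311-112652560, reverse strand, Mael at chr1:166238745-166238994, reverse strand, Mov10l1 at chr15:88982744-88982993, forward strand and Dazl at chr17:50293621-50293870, reverse strand.
Ddx4: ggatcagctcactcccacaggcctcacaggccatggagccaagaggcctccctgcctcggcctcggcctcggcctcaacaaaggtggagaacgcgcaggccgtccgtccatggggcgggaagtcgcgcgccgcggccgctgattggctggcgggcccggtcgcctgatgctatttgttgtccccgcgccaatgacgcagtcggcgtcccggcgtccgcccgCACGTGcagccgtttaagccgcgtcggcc
Mael: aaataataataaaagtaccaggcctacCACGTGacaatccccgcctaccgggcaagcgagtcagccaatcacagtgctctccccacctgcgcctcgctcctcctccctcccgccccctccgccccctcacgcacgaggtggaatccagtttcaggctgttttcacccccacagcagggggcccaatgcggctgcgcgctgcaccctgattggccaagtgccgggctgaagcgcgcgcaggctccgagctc
Mov10l1: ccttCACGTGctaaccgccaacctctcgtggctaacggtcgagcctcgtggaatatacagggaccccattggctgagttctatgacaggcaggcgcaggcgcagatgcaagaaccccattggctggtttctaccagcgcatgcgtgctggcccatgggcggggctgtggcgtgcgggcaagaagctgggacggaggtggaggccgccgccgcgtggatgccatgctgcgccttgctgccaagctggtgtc
Dazl: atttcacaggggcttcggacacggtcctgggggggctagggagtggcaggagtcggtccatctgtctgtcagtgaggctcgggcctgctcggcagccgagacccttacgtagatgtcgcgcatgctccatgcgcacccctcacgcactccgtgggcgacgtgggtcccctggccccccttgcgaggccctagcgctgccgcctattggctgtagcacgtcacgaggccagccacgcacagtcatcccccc

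The E-box began 29 bases before the start site in Ddx4, 223 bases before it in Mael and 246 bases before it in Mov10l1, and Dazl held none. In windows of 300 bases (250 before and 50 after the start, 1 listed start per gene), 9 of 21 germline genes called lower held CACGTG, 2 of 5 called higher and 5 of 19 not called. The share was 9.86% among 11569 tested protein-coding genes and 7.24% among all 27025 promoters in the table. Among tested protein-coding genes called lower it was 11.8%, and among those called higher 9.03%. The letters are a description of the windows, not a binding site, and the motif was chosen after the values were seen.

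Ddx4, the germ cell RNA helicase also called Vasa, stood at 6.07 and 5.26 CPM in CtbpDux_TKO and 0.301 and 0.254 CPM in DKO_Dppa2KO and fell by 4.34 on the log2 scale (SE 0.30, edgeR quasi-likelihood adjusted p 1.78e-06). Dazl, an RNA-binding protein of germ cells, was at 2.77 and 3.09 CPM against 0.2 and 0.0847 CPM, on 4 and 2 counts in DKO_Dppa2KO, and fell by 4.36 on the log2 scale (SE 0.59, edgeR quasi-likelihood adjusted p 0.000267). Sohlh2, a germ cell transcription factor, was at 8.89 and 11 CPM against 0.701 and 0.169 CPM and fell by 4.56 on the log2 scale (SE 0.41, edgeR quasi-likelihood adjusted p 9.52e-06). Fkbp6, which works in piRNA loading, was at 3.47 and 6.38 CPM against 0.301 and 0.169 CPM and fell by 4.40 on the log2 scale (SE 0.47, edgeR quasi-likelihood adjusted p 5.99e-05). The groups did not overlap for any of these 4, nor for 61.1% of all tested genes.

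Single genes of the piRNA pathway and of the synaptonemal complex were lower too, while others such as Piwil1, Piwil2, Tdrkh, Sycp3 and Syce2 did not pass the test (log2 fold changes −1.24, −0.37, 0.35, −0.69 and 0.08). Mael, a piRNA pathway protein, was at 13.2 and 10.0 CPM against 0.751 and 0.678 CPM (log2 fold change −4.02). Mov10l1, the piRNA precursor helicase, was at 13.7 and 13.3 CPM against 1.45 and 1.44 CPM (−3.22), and Syce1, a central element of the synaptonemal complex, at 10.4 and 10.5 CPM against 0.401 and 0.636 CPM (−4.30). Rpl10l, a testis paralog of a ribosomal protein, was at 39.2 and 41.3 CPM against 3.41 and 3.94 CPM (−3.45). Smaller falls were called for Tex19.1 (−0.55) and Zcwpw1 (−0.80), a reader of histone marks at meiotic breaks. Tuba3a and Tuba3b are near-identical copies whose reads could be split between them.

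The 5 germline genes called higher were Ddx25, Stra8, Tdrd5, Hormad2 and Stag3. Stra8, the retinoic acid response gene that opens meiosis, was at 6.46 and 7.64 CPM in CtbpDux_TKO and 19.3 and 17.9 CPM in DKO_Dppa2KO, with a log2 fold change of 1.40 (SE 0.18, edgeR adjusted p 0.000152). It was higher still in CtbpDKO, at 30.5 and 22.7 CPM. Stag3, a meiotic cohesin subunit, was at 15.7 and 15.3 CPM against 25.8 and 23.7 CPM (0.68).

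**Figure D2:**
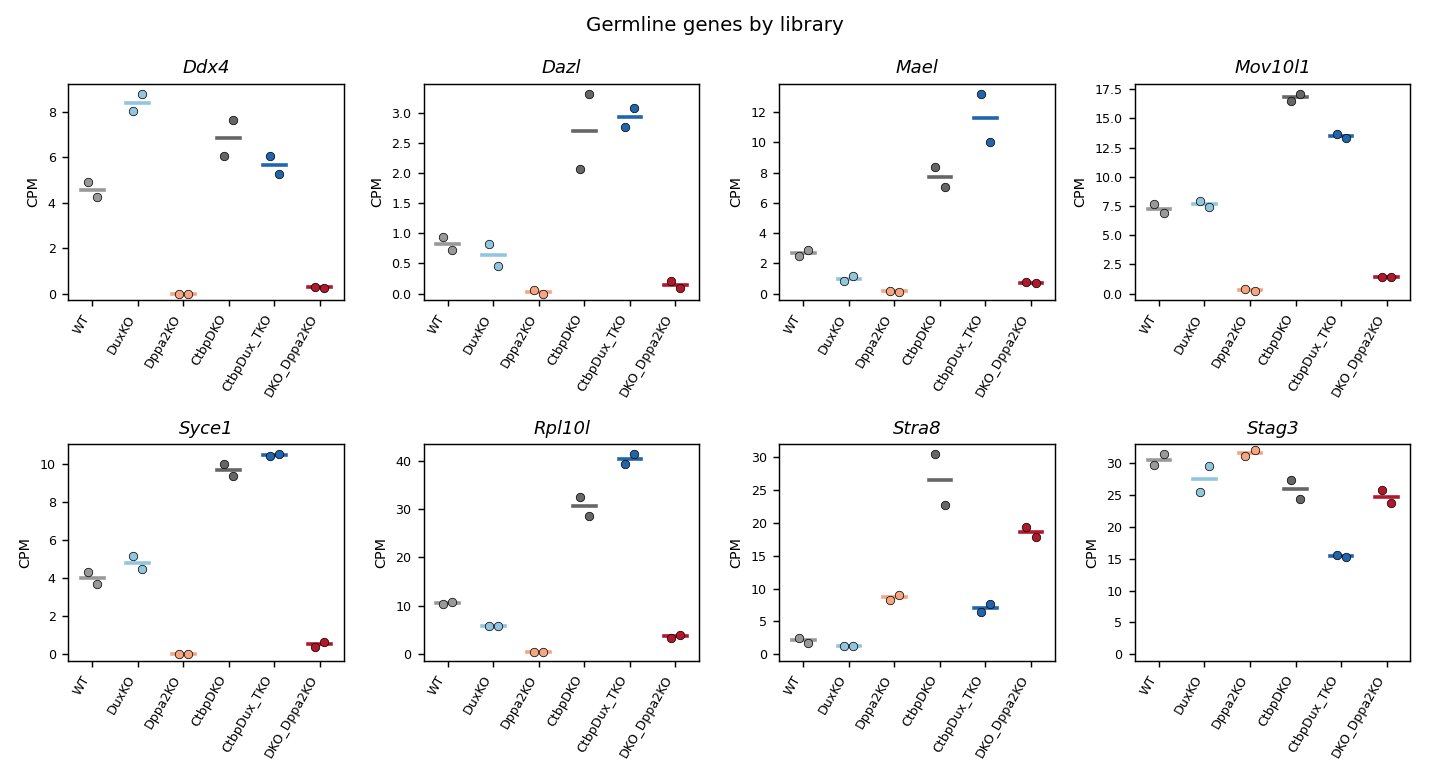
Levels of 8 germline genes in CPM (vertical axes from 0, 1 scale per gene) in the 6 groups. Points are single libraries and bars are means of 2. Ddx4, Dazl, Mael, Mov10l1, Syce1 and Rpl10l are lower in both DKO_Dppa2KO libraries than in both CtbpDux_TKO libraries, and Stra8 and Stag3 are higher.

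In cells with Ctbp, Dppa2KO against DuxKO had 20 of the 51 called lower and 4 higher, where 8.95% and 9.38% of all tested genes were. Ddx4 had 0 and 0 counts in Dppa2KO and 8.03 and 8.81 CPM in DuxKO. Mov10l1 stood at 0.413 and 0.227 CPM and 7.89 and 7.45 CPM, and Rpl10l at 0.495 and 0.425 CPM and 5.88 and 5.92 CPM, in the same order. The interaction was called for 19 of the 51, 12 higher and 7 lower, where 9.44% and 11.4% of all tested genes were called. For Rpl10l it was 0.22 (SE 0.224, edgeR adjusted p 0.616), so a dependence on Ctbp was not detected. For Smc1b, a meiotic cohesin gene, it was −3.16 (edgeR adjusted p 4.85e-05), with a fall of 1.93 without Ctbp and a log2 fold change of 1.24 with it.

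Imprinted genes, whose expression from 1 parental allele is set by germline DNA methylation, were called lower in 21 of 51 tested cases and higher in 3, where 12.5% and 10.5% of all tested genes were, with a median log2 fold change of −0.64. The largest falls came from the Dlk1-Dio3 cluster on chromosome 12, which gives rise to maternal noncoding RNAs and paternal protein-coding genes. Meg3, the first maternal transcript, stood at 8.84 and 9.57 CPM in CtbpDux_TKO and 0.301 and 0.127 CPM in DKO_Dppa2KO and fell by 5.45 on the log2 scale (SE 0.27, edgeR quasi-likelihood adjusted p 1.44e-07). Rian, which hosts snoRNAs, was at 21.8 and 21.5 CPM against 0.551 and 0.678 CPM and fell by 5.12 on the log2 scale (SE 0.18, edgeR quasi-likelihood adjusted p 3.34e-09). Mirg, a microRNA host, was at 4.51 and 4.72 CPM against 0.2 and 0.297 CPM and fell by 4.17 on the log2 scale (SE 0.34, edgeR quasi-likelihood adjusted p 4.21e-06). In each of these 3 the libraries of the groups were far apart. Among the paternal genes, Rtl1 had 114 and 121 counts in CtbpDux_TKO and 0 and 0 in DKO_Dppa2KO and was at least 32.6-fold lower, against a floor of 3 counts per library, and Dlk1 was at 4.25 and 3.5 CPM against 0.2 and 0.254 CPM (log2 fold change −4.05). The third, Dio3, was at 4.29 and 3.5 CPM against 1.55 and 1.82 CPM and did not pass the test (−1.20 (SE 0.41, edgeR adjusted p 0.0527)). Rtl1 overlaps an antisense transcript, and whether the counting used strand is not given in the sources used here.

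**Figure D3:**
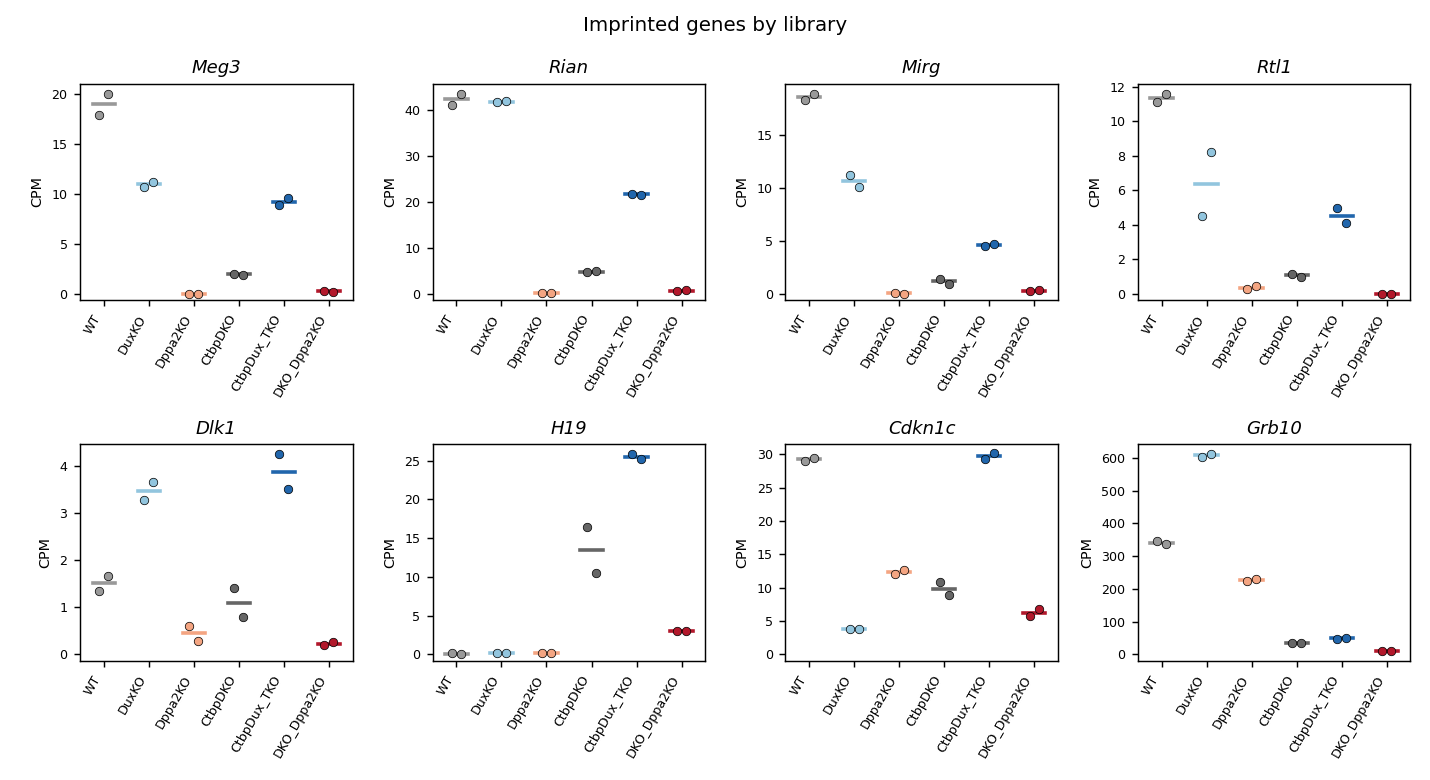
Levels of 8 imprinted genes in CPM (vertical axes from 0, 1 scale per gene) in the 6 groups. Points are single libraries and bars are means of 2. For each gene both DKO_Dppa2KO libraries lie below both CtbpDux_TKO libraries.

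Outside the cluster, H19 was at 25.8 and 25.2 CPM in CtbpDux_TKO and 3.01 and 3.01 CPM in DKO_Dppa2KO (log2 fold change −3.08). The growth inhibitor Cdkn1c was at 29.4 and 30.2 CPM against 5.71 and 6.74 CPM (−2.25), and the adaptor gene Grb10 at 47.3 and 50.9 CPM against 9.97 and 10.8 CPM (−2.24). Grb10 was far higher in the lines with Ctbp, at 603 and 611 CPM in DuxKO and 224 and 229 CPM in Dppa2KO. Sgce rose by 1.58, and Commd1 and Sfmbt2 by 0.52 and 0.41, on the log2 scale. Against CtbpDKO, which both triple knockouts share, CtbpDux_TKO had 13 imprinted genes called higher and 1 lower, where 3.60% and 4.54% of all tested genes were. DKO_Dppa2KO had 1 higher and 19 lower against it, beside 5.75% and 9.67%. Meg3 was at 1.95 and 1.9 CPM and Rian at 4.64 and 4.86 CPM in CtbpDKO, between the triple knockouts. In cells with Ctbp, Dppa2KO against DuxKO had 9 called higher and 17 lower, beside 9.38% and 8.95% over all genes. There Meg3 had 0 and 0 counts in Dppa2KO and 10.7 and 11.2 CPM in DuxKO.

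Genes of DNA methylation moved by smaller steps. Of 16 tested, 8 were called lower and 2 higher, beside 12.5% and 10.5% of all tested genes, with a median log2 fold change of −0.34. The demethylating enzyme genes fell together: Tet1 was at 556 and 551 CPM in CtbpDux_TKO and 327 and 277 CPM in DKO_Dppa2KO and fell by 0.88 on the log2 scale (SE 0.14, edgeR quasi-likelihood adjusted p 0.000829). Tet3 was at 29.2 and 28.9 CPM against 12.7 and 12.7 CPM and fell by 1.20 on the log2 scale (SE 0.13, edgeR quasi-likelihood adjusted p 4.77e-05), and Tet2 fell by 0.61. The de novo methyltransferase genes Dnmt3a and Dnmt3b fell by 0.62 and 0.55, while their cofactor Dnmt3l, at 264 and 249 CPM against 346 and 375 CPM, rose by 0.49 on the log2 scale (SE 0.08, edgeR quasi-likelihood adjusted p 0.00115). The maintenance methyltransferase Dnmt1 was at 303 and 352 CPM against 243 and 224 CPM and fell by 0.49 on the log2 scale (SE 0.09, edgeR quasi-likelihood adjusted p 0.00257). Its recruiter Uhrf1, at 453 and 487 CPM against 416 and 399.5 CPM, did not pass the test (log2 fold change −0.20 (SE 0.08, edgeR adjusted p 0.0887)). Hells, a chromatin remodeller needed for methylation, fell by 0.93. The methylation libraries of the series were not analysed here.

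Nanog, Pou5f1 and Sox2 did not pass the test, and several formative genes were lower. Nanog was at 138 and 143 CPM in CtbpDux_TKO and 141 and 149 CPM in DKO_Dppa2KO (log2 fold change 0.04 (SE 0.08, edgeR adjusted p 0.75)). Pou5f1 was at 524 and 541 CPM against 595 and 668 CPM (0.25 (SE 0.10, edgeR adjusted p 0.109)), and Sox2 at 159 and 158 CPM against 174 and 167 CPM (0.10 (SE 0.08, edgeR adjusted p 0.425)). The Nanog libraries of the groups overlapped. Of 18 core and formative factors 10 were called lower and 2 higher, beside 12.5% and 10.5% of all tested genes. Otx2, which marks the formative epiblast, was at 21.6 and 23.7 CPM against 8.16 and 7.8 CPM and fell by 1.51 on the log2 scale (SE 0.14, edgeR quasi-likelihood adjusted p 1.07e-05). Fgf5 was at 3.51 and 4.14 CPM against 1.2 and 0.593 CPM and fell by 2.11 on the log2 scale (SE 0.34, edgeR quasi-likelihood adjusted p 0.000804). Both were at the lower level in CtbpDKO, at 7.05 and 8.38 CPM for Otx2 and 0.671 and 0.81 CPM for Fgf5. Foxd3 fell by 0.98 and Pou3f1 by 0.86, and Etv4 and Utf1 rose by 0.60 and 0.67. Of 18 naive factors 5 were called lower, Lefty1 most (−1.12), and 3 higher, beside the same shares. Among the higher, Dppa3 was at 0.694 and 0.883 CPM against 2.45 and 2.5 CPM (1.64 (SE 0.43, edgeR adjusted p 0.0154)), a call lost without CtbpDux_TKO replicate 1 or without DKO_Dppa2KO replicate 2.

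**Figure D4:**
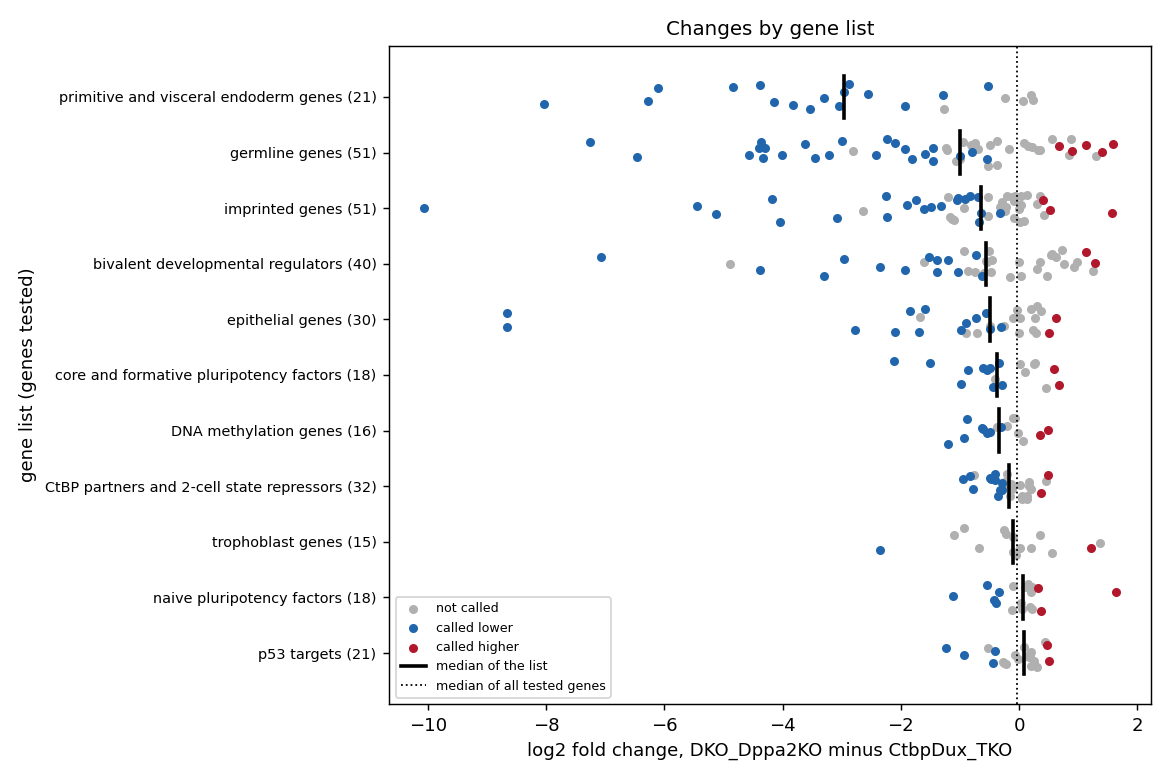
Log2 fold change between DKO_Dppa2KO and CtbpDux_TKO (horizontal axis) of the tested genes of 11 lists (rows, number tested in brackets). Points are genes, coloured by whether they were called, thick bars are list medians and the dotted line is the median of all tested genes. The endoderm median is −2.97 and the germline median −1.0.

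The 2-cell genes, which Dux drives, were not called. Of 27 tested, 0 were called in either direction by the main edgeR fit or by DESeq2. At an unadjusted p under 0.05 in that edgeR fit, 2 were lower and 0 higher. In every library of both groups 19 were at or under 3 counts. Zscan4c had 3 and 0 counts in CtbpDux_TKO and 0 and 0 in DKO_Dppa2KO, and in CtbpDKO it stood at 9.85 and 13.3 CPM. Zscan4 and Usp17l are families of near-identical copies whose reads could be split. Pramel7, a naive-state gene of the cancer-testis Pramel family, was at 1.3 and 1.43 CPM against 0.2 and 0.254 CPM (−2.56 (SE 0.63, edgeR adjusted p 0.0129)), a call lost without CtbpDux_TKO replicate 2 or without either DKO_Dppa2KO library.

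Counts in the other lists stand beside 12.5% lower and 10.5% higher among all tested genes. Of 40 bivalent developmental regulators, genes whose promoters carry activating and repressive marks together in stem cells, 13 were called lower and 2 higher. Foxa2 was at 3.03 and 3.02 CPM against 0.15 and 0.593 CPM (−2.97 (SE 0.49, edgeR adjusted p 0.00102)), and Sox17, Gata6 and Gata4 belong to this list too. Of 30 epithelial genes 13 were called lower and 2 higher. Grhl2, a master regulator of epithelial junctions, was at 30.7 and 32.9 CPM against 11 and 8.77 CPM and fell by 1.69 on the log2 scale (SE 0.15, edgeR quasi-likelihood adjusted p 8.34e-06), and the desmosome gene Dsp fell by 1.58. Of 32 CtBP partners and repressors of the 2-cell state 11 were called lower and 2 higher. They include Mga, the Max partner named above, at 168 and 129.9 CPM against 81.4 and 72.7 CPM (−0.95 (SE 0.16, edgeR adjusted p 0.00135)), and the histone methyltransferase gene Ehmt2, which fell by 0.78. Of 15 trophoblast genes 1 was called higher, Tfap2c, at 11.7 and 10.1 CPM against 25 and 25.5 CPM (1.21 (SE 0.12, edgeR adjusted p 1.92e-05)), and 1 lower, Hand1, a call lost without CtbpDux_TKO replicate 2 or without either DKO_Dppa2KO library. Of 21 p53 targets 2 were called higher and 4 lower.

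The largest single changes were losses. Of the 10 lowest genes with a mean of 50 counts or more in the higher group, 7 had 0 counts in DKO_Dppa2KO. Besides Rtl1 these were Hkdc1, a hexokinase-like gene, at least 30.02-fold lower, Habp2, a secreted protease, at least 23.4-fold, Clca3b at least 21.3-fold, the transcription factor gene Tcf23 at least 18.6-fold, Fthl17c at least 15.4-fold and Wdr20rt at least 13.4-fold, each against 3 counts per library. Hkdc1 was at 5.2 and 3.12 CPM in CtbpDux_TKO and 0.549 and 0.279 CPM in CtbpDKO. Klb, the co-receptor beta-klotho, was at 7.72 and 6.52 CPM against 0.1 and 0.0847 CPM (−6.21 (SE 0.62, edgeR adjusted p 2.46e-05)). Its DKO_Dppa2KO levels lay under 3 counts, which is 0.150 and 0.127 CPM there, so the size of the fall is uncertain. Cplx2, a synaptic complexin gene, was at 23.8 and 58.8 CPM against 0.301 and 0.0847 CPM (−7.78 (SE 1.00, edgeR adjusted p 0.000172)), with CtbpDux_TKO libraries that differed from each other by more than 2-fold.

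The largest rises were smaller. Bc1, a short cytoplasmic RNA of neurons, was at 1.52 and 0.509 CPM in CtbpDux_TKO and 11.4 and 29.7 CPM in DKO_Dppa2KO (4.40 (SE 0.70, edgeR adjusted p 0.000797)). Replicates of each group lay far apart. In both groups Bc1 was higher in the library with the larger structural RNA share, and a link was not tested. Ttc23, a cilium gene, was at 0.52 and 0.611 CPM against 5.61 and 3.35 CPM and rose by 2.96 on the log2 scale (SE 0.31, edgeR quasi-likelihood adjusted p 3.07e-05). DuxKO had 6.46 and 6.22 CPM of it and CtbpDKO 0.488 and 0.335 CPM. Cnn2, an actin-binding calponin, was at 14 and 14.3 CPM against 55.5 and 59.4 CPM and rose by 2.02 on the log2 scale (SE 0.11, edgeR quasi-likelihood adjusted p 1.44e-07). Hmgn5, a nucleosome-binding protein gene, was at 2.86 and 2.61 CPM against 13.7 and 11.6 CPM and rose by 2.20 on the log2 scale (SE 0.18, edgeR quasi-likelihood adjusted p 4.12e-06). Lrfn3, Ggt7, Pla2g1b, Tmem141, Pter and Ccdc28b rose by 1.84 to 2.83 on the log2 scale.

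The change also followed gene span, the distance from first to last annotated base. This was seen in 9448 protein-coding genes with a RefSeq span and a mean log2 CPM of at least 2. Noncoding genes and genes of lower level were left out of the quintiles. In the quintile of shortest genes (374 to 8451 bases) the median log2 fold change was 0.21, with 589 of 1889 called higher and 131 lower. The middle quintile had a median of 0.077, with 350 of 1889 higher and 221 lower. In the quintile of longest genes (66780 to 2390387 bases) the median was −0.18, with 151 of 1890 higher and 602 lower. Shares given above for all tested genes cover a wider set than these quintiles. With the trend on span removed per library, an alternative added after seeing the data, 4618 genes were called, 1804 higher and 2814 lower. Of the main calls, 1580 of the 2222 higher and 2332 of the 2650 lower genes were called again in the same direction. The endoderm list then had 16 called lower and 0 higher, and the germline list 23 lower and 5 higher, as before. Other lists shifted. The DNA methylation list had 9 lower, Uhrf1 now among them, and 1 higher. The epithelial list had 14 lower and 1 higher, and the p53 list 5 lower and 0 higher. The 2-cell list, with no call in the main fit, had 1 lower, Eif1a, and 0 higher.

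**Figure D5:**
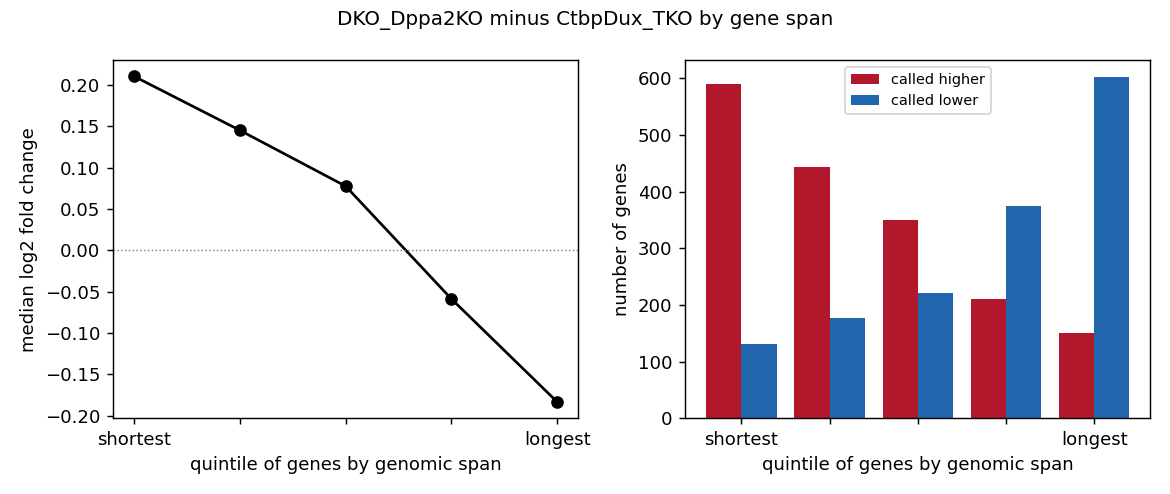
Median log2 fold change (left, vertical axis) and number of called genes (right, vertical axis, from 0) for quintiles of genes by genomic span, from the shortest to the longest (horizontal axes). The median falls from 0.21 to −0.18, and calls pass from mostly higher to mostly lower.

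Whether the difference between Dppa2 and Dux loss depended on Ctbp was tested for each gene as an interaction, over 8 libraries in which the pairs compared share none. It was called for 4409 of 21193 genes (20.8%), 2001 higher and 2408 lower. Of all tested genes, 9.38% were called higher and 8.95% lower in Dppa2KO than in DuxKO. Of the 2222 genes higher in DKO_Dppa2KO than in CtbpDux_TKO, 316 (14.2%) were also higher in Dppa2KO than in DuxKO. That is 15.9% of the 1988 higher there, and 302 (13.6%) of the 2222 were lower there. Of the 2650 lower genes 464 (17.5%) were lower in both, which is 24.5% of the 1896 lower there. Another 455 (17.2%) went the opposite way.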

How the data were processed

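RNA was measured in 34 libraries of E14tg2a cells, and 1 table of 12 libraries, 6 groups of 2, was used here. The deposited values are raw counts per gene symbol. Per the submitters' processing notes, Trim Galore, HISAT2 and featureCounts were used with build mm10, and the labels' protocols name a stranded kit. Settings, strand use and annotation are not given in the sources used here. 26 symbols appear as dates and stayed in as unnamed features.

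Counts were tested with edgeR 4.0.16 in R 4.3.3 (quasi-likelihood F test, filterByExpr, TMM factors, group as the only term, all 12 libraries in 1 fit). P-values were adjusted by Benjamini-Hochberg over 21193 genes, called under 0.05. The prior count behind fitted log2 values was 0.125. The script was tested on simulated data. DESeq2 1.42.0 was an alternative. Reads carry no molecular identifiers, so only counting error enters the floors. Replicates of a group differed beyond sampling noise, with chi-square values of 18.1 to 43.8 for each gene on average. These were scaled by raw totals with structural RNA genes kept. Genes of very high count can dominate such a mean, so it does not describe a typical gene.

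The members and lists were chosen with earlier results of these data known. Named genes are 15 always named, the 10 lowest and 10 highest called genes without overlap and with a mean of 50 counts or more in the higher group, up to 4 called genes of each list, and 3 interactions per direction. Others were named after their values were seen, and 1 gene of the rule is not reported here. Chromosomes, spans and promoters come from RefSeq GRCm38.p6, which matched 18245 tested genes.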

Additional observations from a re-analysis of the deposited data

Results flagged for a closer look

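Only the always named genes and those named for their interaction were looked at here, not the other genes named by rule. For 13 of them, the difference between Dppa2 and Dux loss itself differed between cells without and with Ctbp. The test was edgeR's test of the interaction (Benjamini-Hochberg adjusted p under 0.05). Habp2, Cplx2, Hkdc1, Ppm1k, Ddx4 and Meg3 had been picked for the lowest or highest called interactions, so their passing was fixed in advance. Ddx4 and Meg3 were also always named. Values are log2 interactions, DKO_Dppa2KO minus CtbpDux_TKO less Dppa2KO minus DuxKO. Among the targeted genes they were −1.58 for Dppa2 and −0.39 for Ctbp2. Among genes of DNA methylation they were −1.06 for Dnmt3l, −0.52 for Dnmt1 and −0.36 for Uhrf1. Nanog had −0.69 and Pou5f1 −0.44. Both were higher in Dppa2KO than in DuxKO and did not pass the test without Ctbp.

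The fitted values of Habp2 (−15.16), Hkdc1 (−11.16), Ddx4 (6.63) and Meg3 (5.90) rest on a group with 0 counts, depend on the prior count and are no measure of size. Cplx2, a synaptic vesicle gene, had −13.64. Its counts were 549 and 1732 in CtbpDux_TKO, 6 and 2 in DKO_Dppa2KO, 33 and 15 in DuxKO and 552 and 2788 in Dppa2KO, so replicates of a group also lay far apart. Ddx4 and Meg3 were called lower in DKO_Dppa2KO than in CtbpDux_TKO and in Dppa2KO than in DuxKO. They had 0 counts in both Dppa2KO libraries, while DKO_Dppa2KO had 6 and 6 of Ddx4 and 6 and 3 of Meg3. Ppm1k, a mitochondrial phosphatase gene, had 6.93. It was at 3.30 and 1.93 CPM in DuxKO, 0.0551 and 0.0284 CPM in Dppa2KO, 0.607 and 0.781 CPM in CtbpDux_TKO and 1.40 and 1.61 CPM in DKO_Dppa2KO. The Dppa2KO levels lay under 3 counts, which is 0.0826 and 0.0851 CPM there, so the size of its interaction is uncertain too.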

How the results depend on the processing

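With a change of 2-fold or more also required, the main comparison called 1497 genes and the interaction 2206. With 1 library left out, the main comparison called 2352 (without DKO_Dppa2KO replicate 2) to 3744, and 2864 without CtbpDux_TKO replicate 1. The lone library is then assumed to vary like the other groups. Under DESeq2, other scalings, other filters, fewer groups or features and the removed span trend it called 3923 to 5446 genes. Lower calls of the endoderm, germline and imprinted lists stayed within 1.5 times. Higher calls fell from 5 to 3 germline genes at 2-fold, without chromosomes 5, 8 and 11 or without either CtbpDux_TKO library, and from 3 to 1 imprinted gene at 2-fold. With a replicate block, 4410 genes were called. The labels do not say that numbers mark shared material, and replicate differences of the compared groups correlated at 0.023 over 9448 genes. For 77 named genes over 12 settings, 874 values kept direction and side of the threshold, 42 lost the call and 1 gained it. Named genes were not compared without structural RNA genes or without chromosomes 5, 8 and 11. Reversals were Ctbp2 (0.042) and Nanog (−0.12) with the span trend removed, and Ctbp1, on 0 to 4 counts (−4.85 to 0.79 with 1 library left out), none of them called. With 1 library left out, calls were lost for Pramel7, Dppa3, Gbx2, Hand1, Prom2, Perp, Phlda3, H2-K1, Bst2, Thy1 and Rpph1 (0.82, and 0.32 without DKO_Dppa2KO replicate 2). Genes with few counts are limited by depth.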
